A study of Sus scrofa with 12 samples.

Results

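Epidermal growth factor (EGF) and the 4 receptors of the ERBB family, EGFR, ERBB2, ERBB3 and ERBB4, were described here in an ATAC-seq comparison of longissimus dorsi muscle from Luchuan and Duroc pigs. In ATAC-seq a transposase inserts sequencing adapters where chromatin is open, and a site with many reads is an accessible one. The muscle came from 3 Luchuan and 3 Duroc boars, 180 days old and raised under the same feeding conditions, with no treatment. Luchuan is an obese Chinese breed with thin muscle fibers, and Duroc is a lean breed with thick fibers. The question of the comparison was which open chromatin differs between these muscles. The table of peaks gave 1 read count for each breed and none for a single boar, so no value below has a standard deviation between animals and no test between the breeds was possible.

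A region was counted for a gene when its midpoint lay in the gene body or within 10 kb of either end, in the pig assembly Sscrofa11.1. This gave 160 regions for the 5 genes, out of 140081 regions in all. EGF held 41 of them, EGFR 48, ERBB2 11, ERBB3 3 and ERBB4 57. The family was selected on the same reads that are compared below, because EGF had shown regions with more reads in Duroc. Its values are therefore a description, and none of them is independent support for a difference at EGF.

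EGF is a small secreted protein that is cut from a long membrane-bound precursor. It binds EGFR, and binding brings receptors together in pairs, so that their kinase domains phosphorylate each other and pass the signal to the RAS-MAPK and PI3K-AKT cascades. ERBB2 has no known ligand of its own and acts as a partner, and ERBB3 has a weak kinase and signals through its partner. Both ERBB3 and ERBB4 bind neuregulins, though not every neuregulin binds both. In skeletal muscle, neuregulin signalling through the ERBB receptors is known for its role at the neuromuscular junction and in muscle spindles, and EGFR signalling is known from satellite cells, the stem cells of muscle.

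The regions of the whole table held 20760292 Duroc and 13746432 Luchuan reads, with a median of 61 and 38 per region. Luchuan counts were multiplied by 1.48, the factor that set the median log2 ratio of the regions common to both breeds to 0. A log2 ratio below is that of the scaled Luchuan count to the Duroc count with 1 added to each, so a negative value means more reads in Duroc and -1 is a 2-fold difference. The bracketed range after a ratio is its 95% Clopper-Pearson interval. It covers counting error only, because each breed had 1 count and no spread between boars entered it. Whether copies of a molecule made by PCR were removed is not given in the sources used here. Any copies left would make the interval too narrow. Over all regions the median ratio was -0.02, with quartiles of -0.35 and 0.31. All 8 muscle fiber marker genes had regions, with between 2384 (MYH2) and 11718 (MYH4) Duroc reads and between 1335 and 5171 Luchuan reads per gene. This is no check of the tissue label, because 16986 of the 19550 protein-coding genes had a region. The window of the leukocyte gene CD68, with 2377 Duroc reads, came close to that of MYH2. In both windows the region with the most reads lies outside the gene body.

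EGF (chr8:112235607-112330062) had fewer reads in Luchuan along nearly the whole gene. Its 41 regions held 5877 Duroc and 2895 Luchuan reads, which became 4290 after scaling, a log2 ratio of -0.45 (-0.52 to -0.39). The median of its regions was lower, at -0.72, and 39 of the 41 lay below 0. Before any scaling each of the 41 regions had more reads in Duroc, against 83.2% of all regions. The interval of 26 regions lay wholly below 0 and that of 15 regions included 0. No region had an interval above 0.

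A region was called when its ratio reached 2-fold and its interval excluded 0. At EGF 11 regions, or 26.8%, were called higher in Duroc and 0 higher in Luchuan. Over all regions these shares were 5.14% and 6.35%. By the 2-fold limit alone the shares over all regions were 5.66% and 7.2%, and the same numbers of EGF regions passed, 11 and 0. Each of the 11 called regions was marked by the authors as a peak of Duroc alone and held fewer than 200 reads.

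**Figure D1:**
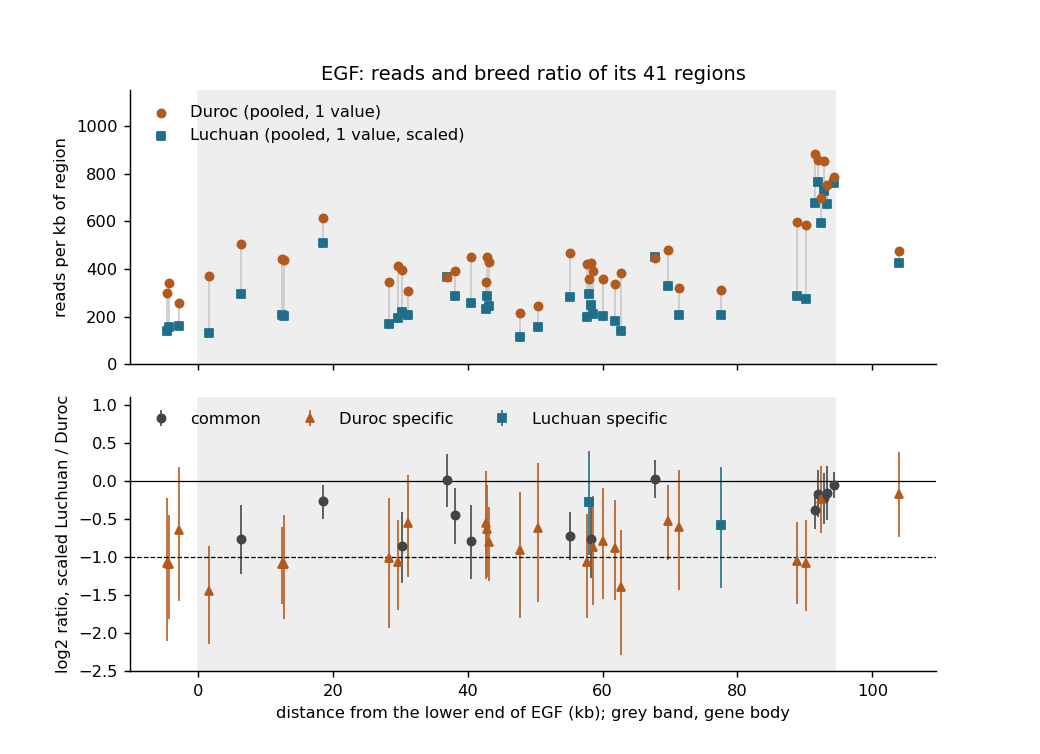
The upper panel plots reads per kb of each of the 41 EGF regions in Duroc (circles) and in Luchuan after scaling (squares), 1 pooled value per breed, against the distance from the lower end of the gene in kb; the lower panel plots the log2 ratio with its 95% counting interval, and the dashed line marks 2-fold. In 39 of 41 regions the Luchuan value lies under the Duroc value, and the cluster close to the upper end, with the most reads per kb, lies nearest to 0.

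The annotation used here gives no strand, so the ends of EGF are named by coordinate, as the lower and the upper end. Of the 3 regions below the lower end, chr8:112230901-112231050 had 45 reads in Duroc and 14 in Luchuan, which gave -1.08 (-2.10 to -0.23). The next, chr8:112231159-112231393, had 80 and 25 reads and a ratio of -1.09 (-1.82 to -0.45). The third, chr8:112232771-112232925, had 40 and 17 reads and -0.65 (-1.58 to 0.18). The first 2 were called and the third was not, and together these 3 regions gave -0.98 (-1.46 to -0.55). Between them and the first region inside the gene the table listed no region over the lower end itself.

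Inside the gene the lowest ratio of the family stood 1.71 kb from the lower end. This region, chr8:112237168-112237468, had 111 Duroc and 27 Luchuan reads and a ratio of -1.45 (-2.14 to -0.86). The pair at chr8:112247878-112248200, with 143 and 45 reads, and chr8:112248266-112248448, with 80 and 25 reads, both gave -1.09. These called regions alternated with common ones that were closer to 0. The common region chr8:112241916-112242214 had 151 and 60 reads and -0.76, and the strongest region of the lower part of the gene, chr8:112253844-112254601, had 465 and 260 reads and -0.27 (-0.50 to -0.05).

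Between 28.4 and 31.1 kb from the lower end, 4 regions lay within 3 kb of each other. There 2 regions were called, chr8:112263926-112264075 with 52 and 17 reads and -1.02, the called region nearest to the limit, and chr8:112265068-112265320 with 104 and 33 reads and -1.07. The common region chr8:112265588-112265959 had 148 and 55 reads and -0.85, and chr8:112266616-112266822 had 64 and 29 reads and -0.56. All 4 had more reads in Duroc.

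The next stretch, from 36.9 to 50.5 kb, held 8 regions and no call. One of the 2 EGF regions above 0 was here, the common region chr8:112272303-112272794, with 180 and 122 reads and 0.01 (-0.34 to 0.35). Its neighbour chr8:112273417-112273899 had 189 and 93 reads and -0.45, so common regions less than 1 kb apart differed in ratio, with intervals that overlapped. The common region chr8:112275977-112276268 had 131 and 51 reads and -0.79. A row of 3 Duroc-specific regions, chr8:112278249-112278413, chr8:112278421-112278600 and chr8:112278661-112278970, had 57 and 26, 81 and 35, and 133 and 51 reads and gave -0.55, -0.63 and -0.81. The last 2 of this stretch were chr8:112283256-112283491, with 51 and 18 reads and -0.91, the region just short of the 2-fold limit, and chr8:112286042-112286191, with 37 and 16 reads and -0.62.

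The middle of the gene, from 55.2 to 62.7 kb, held 8 regions, all lower in Luchuan. The strongest was the common region chr8:112290486-112291110, with 293 Duroc and 120 Luchuan reads and -0.72 (-1.04 to -0.41). Both calls of this part were Duroc-specific, chr8:112293196-112293383 with 79 and 25 reads and -1.07, and chr8:112298247-112298423 with 68 and 17 reads and -1.40 (-2.29 to -0.65). Between them chr8:112293808-112294091, a common region, had 121 and 48 reads and -0.76, and 3 Duroc-specific regions, chr8:112294094-112294262, chr8:112295488-112295660 and chr8:112297290-112297516, had 66 and 24, 62 and 24, and 77 and 28 reads and gave -0.87, -0.79 and -0.88.

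The authors marked 2 EGF regions as peaks of Luchuan alone, and both had more reads in Duroc. The first, chr8:112293527-112293676, had 54 Duroc and 30 Luchuan reads and -0.28 (-0.98 to 0.39). The second, chr8:112313007-112313156, had 47 and 21 reads and -0.58 (-1.41 to 0.18). Over all regions marked as Luchuan alone, 8.46% had a ratio below 0. At these 2 places, then, the peak class and the direction of the counts differed, and both intervals included 0.

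Toward the upper part of the gene, at 67.8 kb, stood the other region above 0, the common region chr8:112303039-112303753, with 318 and 218 reads and 0.02 (-0.23 to 0.28). Next came 2 Duroc-specific regions, chr8:112305216-112305453 with 114 and 53 reads and -0.53, and chr8:112306951-112307100 with 48 and 21 reads and -0.61. A call came at 5.64 kb from the upper end, chr8:112324320-112324527, with 124 and 40 reads and -1.05 (-1.62 to -0.54).

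The last 5 kb at the upper end held 7 regions and the highest read density of the gene. One of them was called, chr8:112325676-112325848, with 101 and 32 reads and -1.08 (-1.71 to -0.51). From there the ratios came closer to 0. The common regions chr8:112326894-112327360 and chr8:112327422-112327702 had 413 and 214 and 241 and 145 reads and gave -0.38 (-0.63 to -0.14) and -0.17 (-0.47 to 0.14). The Duroc-specific region chr8:112327930-112328109 had 126 and 72 reads and -0.24, and the common regions chr8:112328281-112328522 and chr8:112328743-112328984 had 207 and 119 and 182 and 110 reads, with -0.23 and -0.16. Over the upper end itself lay the strongest EGF region, chr8:112329438-112330350, with 719 Duroc and 470 Luchuan reads and -0.05 (-0.22 to 0.12), an interval that included 0. Beyond the end, chr8:112339475-112339631 had 75 and 45 reads and -0.17 (-0.74 to 0.38).

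The ratio at EGF differed between parts of the gene. Summed over the last 5 kb the ratio was -0.21 (-0.31 to -0.10), and over the other 34 regions it was -0.60 (-0.68 to -0.52), a range that did not overlap the first. It also differed with read number: the 12 regions with 200 or more reads gave -0.25 (-0.33 to -0.17) and the 29 with fewer reads gave -0.82 (-0.93 to -0.71). The 14 common regions together gave -0.28 (-0.36 to -0.21), and the 25 Duroc-specific ones -0.84 (-0.97 to -0.72). Read number and peak class both come from the reads that are compared, so neither split is independent of the ratio. The split at the last 5 kb was chosen after the values were seen. Of its 7 regions 5 were common, against 9 of the other 34. Position therefore cannot be told apart from read number and peak class here.

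From 50 to 199 reads, a larger share of the EGF regions than of all regions was called higher in Duroc. Among all regions with 100 to 199 reads 7.22% were called higher in Duroc, and among those of EGF 8 of 16, or 50%. With 50 to 99 reads the shares were 6.75% of all regions and 3 of 13, or 23.1%, of those of EGF. At 200 to 499 reads none of the 8 EGF regions was called, against 5.18% of all. The quartiles of the 200 to 499 class over all regions were -0.38 and 0.15, and the lower quartile of the 8 EGF regions was -0.73. These read classes mix the peak classes, and of the 29 EGF regions under 200 reads 25 were Duroc-specific. Over all Duroc-specific regions the median ratio was -0.38, and 79% lay below 0. Of them 14% were called higher in Duroc, against 11 of 25, or 44%, at EGF.

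**Figure D2:**
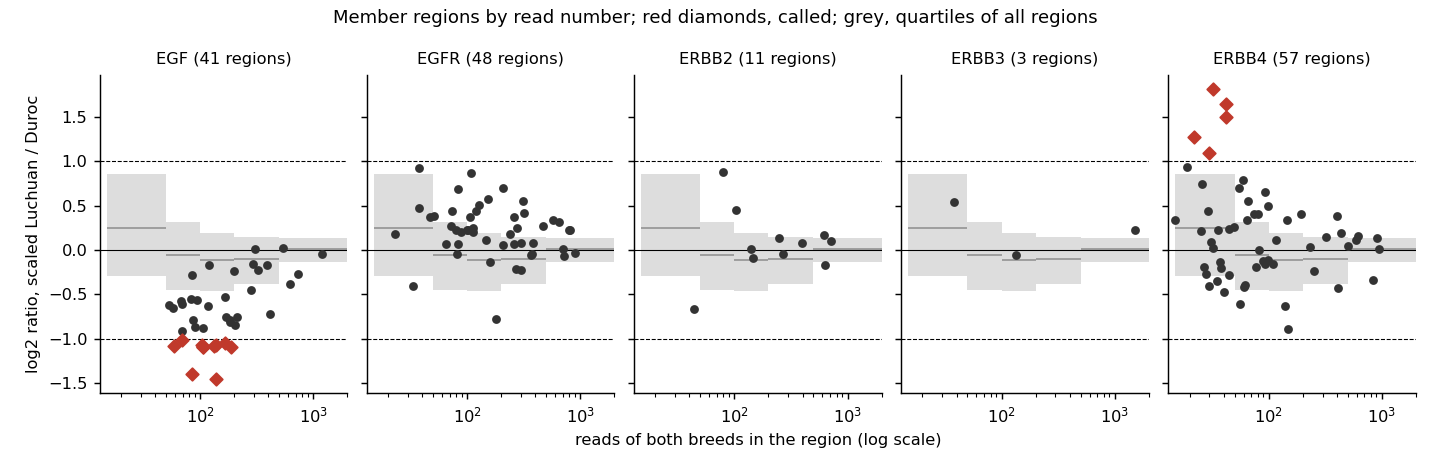
Each point is a region of EGF, EGFR, ERBB2, ERBB3 or ERBB4, with the reads of both breeds on a log axis and the log2 ratio of scaled Luchuan to Duroc reads; red diamonds are called regions, dashed lines mark 2-fold, and grey boxes with a line give the quartiles and median of all regions in 5 read classes. The 11 called EGF regions lie between 50 and 199 reads and below -1, and the 5 called ERBB4 regions lie under 50 reads and above 1.

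EGF stood low among other genes as well, again as a description. Of 8803 protein-coding genes with 5 or more regions and 500 or more reads, the quartiles of the summed ratio were -0.16 and 0.09, and 312, or 3.54%, were lower than EGF. By the median over the regions of a gene, 1.48% were lower. The genes nearest to EGF in summed ratio over the 2 breeds were MYBPH, which encodes a myosin-binding protein, LOC100513844 and ANKUB1, at -0.45, -0.45 and -0.46. They were chosen for that value alone. They held 8, 6 and 6 regions, and their medians, -0.35, -0.31 and -0.63, were closer to 0 than that of EGF.

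**Figure D3:**
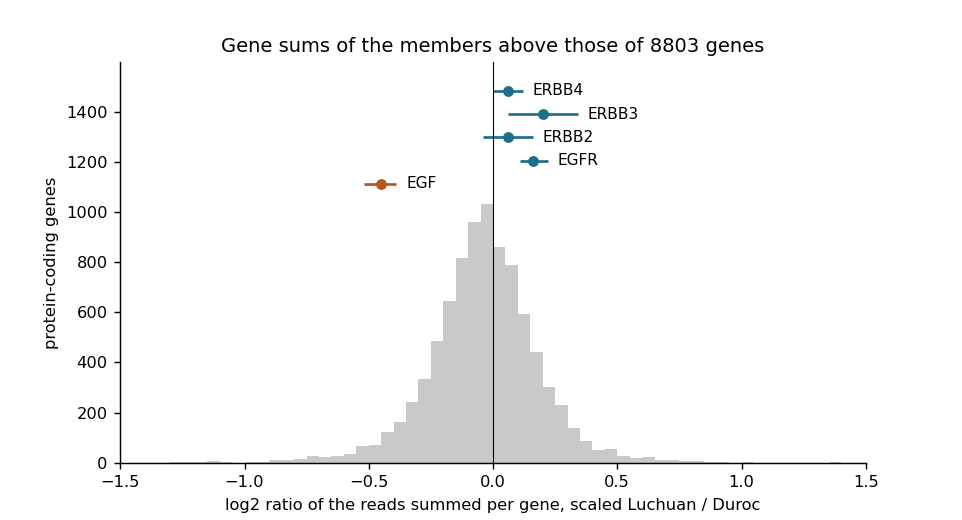
Grey bars count the 8803 genes by the log2 ratio of their summed reads, scaled Luchuan to Duroc, and the points above are EGF and the 4 receptors with 95% counting intervals. EGF, at -0.45, lies outside the quartiles of the genes (-0.16 and 0.09), and the receptors lie between 0.06 and 0.20.

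The lower side of EGF carried its difference past the 10-kb limit. Just outside it, 12 to 13.3 kb below the gene, were chr8:112222241-112222390 with 71 Duroc and 13 Luchuan reads and -1.83 (-2.86 to -1.02), chr8:112222619-112223178 with 363 and 105 reads and -1.22 (-1.55 to -0.91), and chr8:112223404-112223817 with 215 and 64 reads and -1.17. Another, chr8:112225354-112225816, had its midpoint at 10 kb, just past the limit, with 214 and 67 reads and -1.10. All 4 were called, 2 of them are common regions with over 200 reads, and together they gave -1.22. No protein-coding gene body of the annotation held them. On the upper side 3 regions stood between 10 and 25 kb from the gene, with a summed ratio of -0.35 and no call.

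Over 500 kb on each side the summed ratio was closer to 0 than at EGF. The 500 kb below the EGF window gave -0.08 (-0.13 to -0.03) over 73 regions, with 7 (9.59%) called higher in Duroc, 4 of which are those just named, and 2 (2.74%) higher in Luchuan. The 500 kb above gave -0.28 (-0.33 to -0.22) over 46 regions, with 6 (13%) and 2 (4.35%). Both Duroc shares were above, and both Luchuan shares below, those of all regions, 5.14% and 6.35%. The nearest gene below was ELOVL6, a fatty acid elongase, at -0.02 (-0.13 to 0.08). On the other side LRIT3 gave -0.31 (-0.45 to -0.17), RRH 0.07 (-0.32 to 0.45) and GAR1 0.17 (0.01 to 0.33). A second stretch lower in Luchuan lay 209 kb above EGF at MCUB, a subunit of the mitochondrial calcium uniporter, with 5 of 13 regions called higher in Duroc, 1 called higher in Luchuan and a sum of -0.83 (-0.94 to -0.71). EGF was thus not the only gene of this neighbourhood with such calls.

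**Figure D4:**
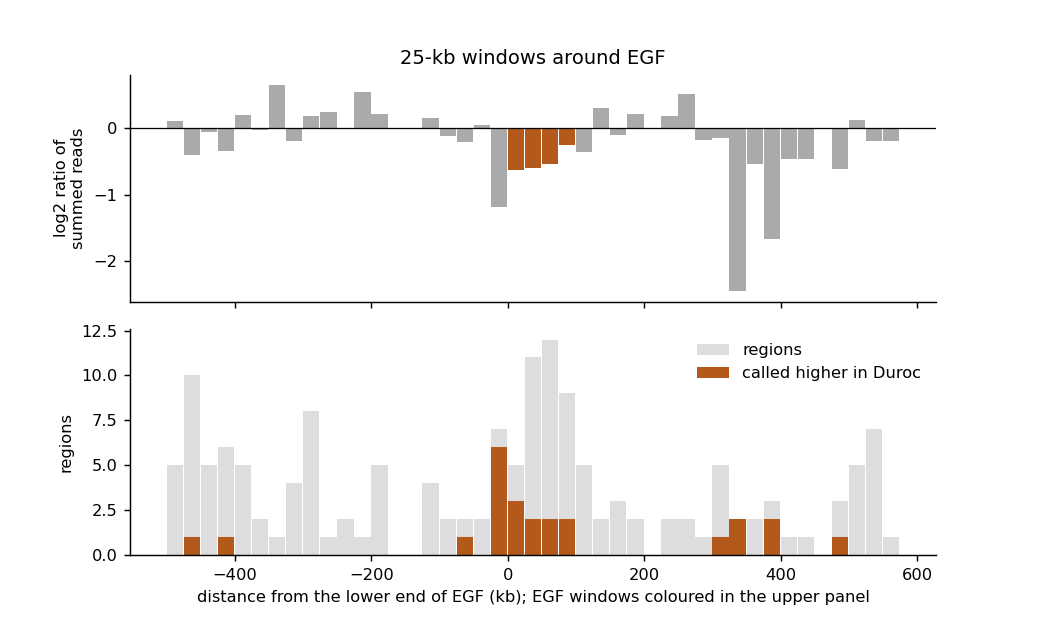
Bars give 25-kb windows by their distance in kb from the lower end of EGF: above, the log2 ratio of the summed reads (windows of EGF coloured, windows without a region empty), and below, the number of regions with those called higher in Duroc coloured. The window just below EGF had 6 of 7 regions called and a ratio of -1.18, and a second low stretch lies over 300 kb from the lower end.

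Muscle fiber markers moved in the same direction as EGF. All 8 had a summed ratio below 0, from -0.61 (MYH4, a fast myosin heavy chain) to -0.09 (ACTA1, skeletal actin), with a median of -0.37. The window of MYH1 overlaps those of its neighbours MYH4 and MYH2, so some regions enter the sums of more than 1 gene. Of their 113 regions 13 (11.5%) were called higher in Duroc and 0 higher in Luchuan, against 5.14% and 6.35% of all regions. The calls rested on MYH4, which held 11 of them, and without its regions 2 of 83 (2.41%) were called. In bulk muscle, fewer cells with an open site and less opening per cell cannot be told apart, and the part of fiber nuclei in the EGF result was not tested. Markers of other cells were mixed or thinly covered. Satellite cell genes gave -0.21 (PAX7) and 0.09 (MYF5), with 2498 to 2524 Duroc and 1474 to 1790 Luchuan reads, and adipocyte genes 0.07 (ADIPOQ) and 0.34 (PLIN1), with 118 to 147 and 101 to 104. The 4 endothelial genes, with 40 to 559 and 27 to 346 reads, ran from -0.70 (TIE1) to 0.73 (KDR). The Schwann cell genes SOX10 and CDH19 gave -0.23 and -0.33, from 54 and 17 Duroc and 31 and 9 Luchuan reads, and S100B is on no chromosome used here. Of 4 fibroblast genes 3 were measured, from -0.10 to 0.39, with 95 to 859 and 84 to 541 reads, and LUM had no region. The leukocyte genes PTPRC and CD68 gave -1.07 and -0.10, the first from 88 Duroc and 28 Luchuan reads. The part of these cells in the EGF result was not tested either.

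The receptors did not share the shift of EGF. Of their 119 regions 0 were called higher in Duroc and 5 higher in Luchuan, or 4.2%, against 5.14% and 6.35% of all regions. Because the family was selected for the Duroc reads of EGF, a contrast with EGF is no independent support. The summed ratio of the receptors was 0.12 (0.08 to 0.15), and their median region stood at 0.17. This small difference in favour of Luchuan rests on the scaling: with the libraries' clean reads in place of common regions, EGFR, ERBB2 and ERBB4 gave -0.04, -0.14 and -0.14, ERBB3 gave 0.00, and EGF gave -0.66.

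EGFR (chr9:139302410-139474632), the receptor of EGF itself, had 6826 Duroc and 5166 Luchuan reads over 48 regions. Its ratio was 0.16 (0.11 to 0.22), and -0.04 when scaled by clean reads. Its regions were alike, with 38 of 48 above 0, a median of 0.23 and no call. The interval of 11 regions lay above 0, that of 1 below, and 36 included 0. The region over the lower end of the gene, chr9:139301901-139302519, had 416 and 282 reads and 0.01 (-0.22 to 0.23), and the region with the most reads, chr9:139306212-139306921, had 534 and 353 and -0.03 (-0.23 to 0.17). Both of these had nearly equal scaled counts, but the 7 EGFR regions with 500 or more reads had a median of 0.23. Nearest the upper end, chr9:139476703-139476910, which lies beyond the gene, had 48 and 34 reads and 0.07 (-0.61 to 0.73).

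The extremes of EGFR lay away from its ends. A Duroc-specific region 116 kb from the lower end, chr9:139417788-139418168, was the lowest with 130 and 51 reads and -0.78 (-1.28 to -0.31). The highest was chr9:139293787-139293941, with 16 and 21 reads and 0.92 (-0.05 to 1.99), the member of EGFR closest to the 2-fold limit. The 5 regions marked as Luchuan alone summed to 0.55 (0.30 to 0.81), from 258 Duroc and 256 Luchuan reads, and the 15 marked as Duroc alone to 0.02 (-0.12 to 0.17). The median of the 5 was 0.37, against 0.76 over all Luchuan-specific regions, and the class is set by the same reads.

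ERBB2 (chr12:22591621-22621384), the partner receptor without a ligand of its own, had 1999 Duroc and 1408 Luchuan reads over 11 regions and a ratio of 0.06 (-0.04 to 0.16), which included 0. Over its upper end lay its region with the most reads, chr12:22620856-22621629, with 417 and 301 reads and 0.10 (-0.12 to 0.31). Near the lower end, chr12:22592008-22592323 had 163 and 107 reads and -0.04 (-0.41 to 0.32). None of its regions was called. The one nearest to the limit, chr12:22602400-22602679, had 35 Duroc and 44 Luchuan reads before scaling and 0.88 (0.22 to 1.58), the only ERBB2 region with more Luchuan reads as counted. The window also takes in regions over an end of MIEN1 and of PGAP3, with 232 and 166 and 397 and 239 reads, and without these 2 the ratio was 0.12 (0.00 to 0.24).

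ERBB3 (chr5:21474218-21495040), whose own kinase is weak, had few reads inside its body. The region near its lower end, chr5:21474308-21474618, had 82 Duroc and 53 Luchuan reads and -0.06 (-0.59 to 0.45), and chr5:21481079-21481228 had 19 and 19 reads and 0.54 (-0.43 to 1.56). Neither interval excluded 0. The third region, chr5:21495371-21496352, lies just beyond the upper end and over an end of the neighbouring gene PA2G4, and it held 855 of the 956 Duroc and 672 of the 744 Luchuan reads. The ERBB3 ratio of 0.20 (0.06 to 0.34) was therefore mostly that of this shared region, 0.22 (0.07 to 0.37), and without it the ratio was 0.08 (-0.38 to 0.53).

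ERBB4 (chr15:113966573-115096984), a neuregulin receptor and the longest gene of the family at 1130 kb, had 5446 Duroc and 3823 Luchuan reads over 57 regions, a density of 4.95 regions per 100 kb of window against 35.8 at EGF. Its ratio was 0.06 (0.00 to 0.12), and -0.14 when scaled by clean reads. The region with the most reads, chr15:114447553-114448217, had 563 and 383 reads and 0.01 (-0.18 to 0.20). At the upper end 6 regions within 5 kb formed a dense cluster, with 1503 Duroc and 1172 Luchuan reads and 0.21 (0.10 to 0.32), and each of the 6 was above 0. The one over the end, chr15:115096719-115097462, had 521 and 387 reads and 0.14 (-0.06 to 0.33). The remaining 51 regions summed to -0.01 (-0.08 to 0.07). Nearest the lower end, chr15:113962952-113963110 had 8 and 7 reads.

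The 5 receptor regions called higher in Luchuan were all in ERBB4 and all thin. They were chr15:114327863-114328036 with 13 Duroc and 29 Luchuan reads and 1.65 (0.73 to 2.79), chr15:114382419-114382570 with 9 and 23 reads and 1.81 (0.75 to 3.22), and chr15:114458078-114458227 with 12 and 18 reads and 1.09 (0.02 to 2.34). The other 2 were chr15:114869277-114869426 with 8 and 14 reads and 1.27 (0.02 to 2.83) and chr15:114939828-114940133 with 14 and 28 reads and 1.5 (0.59 to 2.61). They made up 8.77% of the ERBB4 regions, against 6.35% of all, and 21.7% of its 23 regions with fewer than 50 reads, against 17% of all such regions. These shares are near those of the background and are no result about ERBB4. The called region chr15:114458078-114458227 was marked by the authors as a peak of Duroc alone. Over all regions with that mark, 0.182% were called higher in Luchuan. With a factor that depends on the signal, 3 of the 5 remained called. Just outside the limit on the same side was chr15:115069751-115069900, with 8 and 11 reads and 0.94. In the other direction, chr15:114619080-114619980 with 544 and 291 reads and -0.34 (-0.55 to -0.13) and chr15:114980479-114980850 with 108 and 39 reads and -0.89 (-1.47 to -0.36), both named after their values were seen, were among 4 common regions with an interval below 0.

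The other ligands of the receptors did not stand as low as EGF. The summed ratio was 0.07 for TGFA and 0.07 for AREG, 0.04 for EREG, 0.20 (0.14 to 0.27) for BTC, -0.15 (-0.24 to -0.06) for HBEGF and 0.33 (0.00 to 0.67) for EPGN, the other ligands of EGFR. Among the neuregulins it was 0.03 for NRG1, 0.00 for NRG2, 0.35 (-0.10 to 0.80) for NRG3 and -0.31 (-0.39 to -0.22) for NRG4. Of their 111 regions, 5 were called higher in Duroc and 11 higher in Luchuan, 4.5% and 9.91%, against 5.14% and 6.35% of all regions. In all, 3 of the 10 ligands lay below 0, and 7 of the 10 did when scaled by clean reads.

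NRG4, a ligand of ERBB4, was the ligand nearest to EGF in ratio, and its window held calls in both directions. Of its 19 regions 2 were called higher in Duroc, both beyond the gene body, and 3 higher in Luchuan, all inside it. Over all regions the shares were 5.14% and 6.35%. Its region chr7:56176369-56176790, marked as Duroc alone, had 268 Duroc and 44 Luchuan reads and -2.02 (-2.53 to -1.58), past every region of the 5 members in that direction. The common region chr7:56267721-56268360 had 107 and 168 reads and 1.21 (0.86 to 1.58). So 2 well-covered sites in the window of the same gene were called in opposite directions. The region with the most reads, chr7:56310916-56312276, had 800 and 465 reads and -0.22 (-0.38 to -0.05).

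Over the whole pathway list, 53 genes for ligands, proteases that release them, adaptors, inhibitors, kinases and target transcription factors, 52 could be measured, and AKT1 is on no chromosome used here. Their median was 0.01, with 26 below and 26 above 0, or 43 and 9 when scaled by clean reads. No gene reached 2-fold. Of their 555 regions, 13 (2.34%) were called higher in Duroc and 18 (3.24%) higher in Luchuan, both below the shares of all regions. The lowest were MAPK3, which encodes the kinase ERK1, at -0.60 (-0.77 to -0.43), the transcription factor gene ETV4 at -0.42 (-0.70 to -0.16) and ERRFI1, an inhibitor of EGFR, at -0.32 (-0.46 to -0.19). The highest with 100 or more reads were NRG3, EPGN and LRIG3, a membrane protein of the LRIG family, at 0.31 (0.17 to 0.45).

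The groups of the list lay close together. The 18 genes for ligand release, adaptors and inhibitors had a median of 0.04, with 7 below and 11 above 0. Of their 205 regions 2 (0.976%) were called higher in Duroc and 3 (1.46%) higher in Luchuan. The 24 measured kinases and target factors had a median of -0.08, with 16 below and 8 above 0. Of their 239 regions 6 (2.51%) and 4 (1.67%) were called. All these shares lay below those of all regions, 5.14% and 6.35%. MAPK3 was the only gene of the list lower than EGF, with intervals that overlapped. Its strongest region, chr3:18297709-18298629, had 509 Duroc and 186 Luchuan reads and -0.88 (-1.14 to -0.64).

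**Figure D5:**
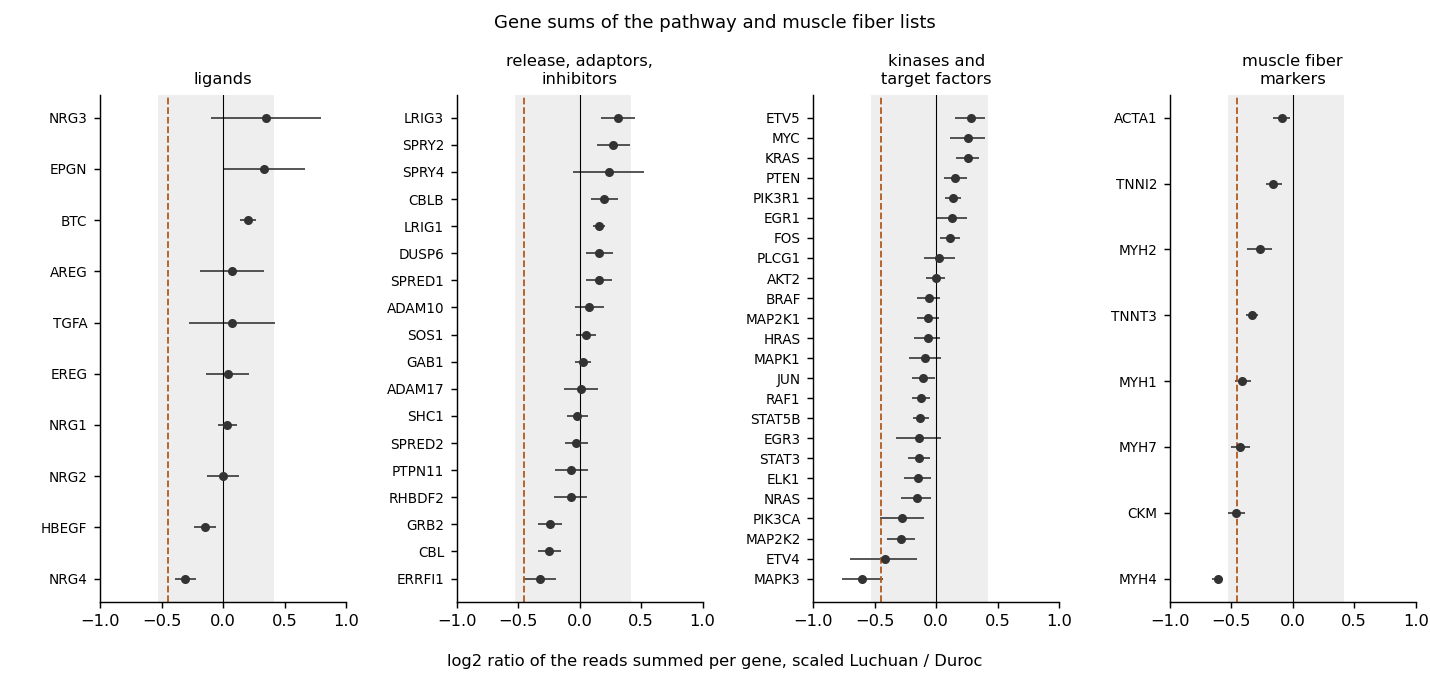
Points are genes of the 3 pathway lists and of the muscle fiber marker list with 100 or more reads, by the log2 ratio of the summed reads, scaled Luchuan to Duroc, with 95% counting intervals; the grey band holds the middle 95% of the 8803 genes (-0.52 to 0.41) and the dashed line marks EGF. MAPK3 is the only pathway gene below the line, and all 8 muscle fiber genes lie below 0.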

How the data were processed

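ATAC-seq was performed on longissimus dorsi muscle, and the RNA-seq of the series was not used here. Per the labels, reads were trimmed with Trimmomatic (v0.36) and mapped with Bowtie2 to Sscrofa11.1, an assembly of a Duroc pig, before peaks were called with MACS2. Removal of duplicate reads, the shift for the transposase and the pooling of replicates are not given in the sources used here. The authors deposited raw read counts, 1 per interval and breed. The columns name no replicate and were read as pooled over the 3 boars, which was not tested. The authors' rescaled fold changes, average signals and p-values were not used.

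Overlapping or adjoining common intervals of the 217213 were merged and represented by the longest one, and positions are given counted from 1. Genes were 19550 protein-coding RefSeq genes on chromosomes 1 to 18, X and Y, without strand or exons, so introns, exons and promoters were not separated. No sequence is printed and the planned motif search in promoters was not run, since no sequence of these regions was used here. The members and lists were chosen with earlier results of these data known. The text names every EGF region, for each receptor the region with the most reads, those at the gene ends and those called, each ligand, the 3 lowest and 3 highest pathway genes and the 3 genes nearest to EGF. Results for some marker genes are not reported here. The code for the scaling factor and the calls was run on simulated counts with counting error alone and no spread between boars. The planted changes were larger than 2-fold. They were placed in regions with more reads than any called ERBB4 region and than some called EGF regions. The run therefore did not test how well changes near 2-fold or in thin regions are called. The tools were pandas 2.3.3 and NumPy 2.4.6 in Python 3.11.15, with statsmodels 0.14.6 for the smoothed factor, SciPy 1.17.1 for intervals and Matplotlib 3.10.9 for plots.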

Additional observations from a re-analysis of the deposited data

How the results depend on the processing

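The comparison was repeated under 15 settings, 12 planned and 3 chosen after seeing the data (a window of 25 kb, EGF without its last 5 kb, and ERBB2 and ERBB3 without regions at ends of other genes). Of 146 values, 120 stayed within the counting interval or within 1.5 times of the count reported, and the summed ratio and the median of EGF were below 0 in each setting applied to EGF. The scaling mattered most: scaled by clean reads the median of all regions moved to -0.21, and without scaling to -0.57. With clean reads the summed log2 ratio was -0.66 for EGF, -0.04 for EGFR, -0.14 for ERBB2, 0.00 for ERBB3 and -0.14 for ERBB4, the median of the EGF regions was -0.92, and 1 receptor region was called higher in Duroc and 3 higher in Luchuan. Without scaling these values were -1.02, -0.40, -0.51, -0.36, -0.51 and -1.28, with 30 EGF regions higher in Duroc by either rule, and 6 receptor regions called higher in Duroc and 2 higher in Luchuan. At 1.5-fold, 22 EGF regions were called higher in Duroc (25 by fold alone), and 3 and 11 receptor regions were called higher in Duroc and Luchuan. With every interval counted by itself the EGF median was -0.63 and 1 receptor region was called higher in Duroc. With a signal-dependent factor 3 receptor regions were called higher in Luchuan. Without its last 5 kb EGF gave -0.60. In each of these settings 0 EGF regions were called higher in Luchuan. Shares of all regions called are given here only for the reported scaling at 2-fold. The counts of called regions under other settings therefore have no background share beside them and are no result about EGF or the receptors. No paired analysis was possible because the counts are pooled over the boars of a breed, and leaving out a replicate was not possible for the same reason. Depth limits the weak regions: the counting interval was -1.32 to 2.03 for an ERBB4 region of 8 and 7 reads and -0.18 to 0.20 for that of 563 and 383 reads.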
